A study of Mus musculus with 14 samples.

Results

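Mitophagy is the removal of damaged mitochondria by autophagy, and 9 of its genes were followed in mouse heart: *Clec16a*, *Pink1*, *Bnip3*, *Bnip3l*, *Fundc1*, *Sqstm1*, *Map1lc3b*, *Bcl2l13* and *Phb2*. The list was drawn up by name, with *Clec16a* put in because it had already been seen to separate the YG8-800 hearts from the WT hearts. All 9 were found among the 54532 gene identifiers of the count tables and all 9 passed the filter on low counts in both comparisons. In the YG8-800 hearts *Clec16a* was 3.51-fold lower than in WT hearts and the groups did not overlap, while the other 8 genes overlapped between the groups. Of all 11875 genes tested in this comparison, 3.88% did not overlap. In KIKO-700 hearts none of the 9 passed the test between males and females with all libraries in the fit.

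The hearts of C57BL/6 mice were read as 14 QuantSeq libraries, a method that counts the 3′ ends of polyadenylated transcripts. The YG8-800 group (4 hearts) carries a human transgene with a long triplet repeat, hemizygous, in mice homozygous for a constitutive null allele of the corresponding mouse gene, and the WT group (4 hearts) is made up of littermates with the normal mouse gene and no human transgene. The KIKO-700 groups (3 female and 3 male hearts) have 1 deleted allele of the same mouse gene and 1 allele with a human repeat expansion inserted in an intron. The labels give an age of 180 days for every heart, whereas the study describes older mice. The alleles are constitutive, so no cell type of the heart was targeted. A WT group of the KIKO-700 cohort was not analysed here, so the KIKO-700 hearts have no control, and any difference between them and the WT hearts cannot be told apart from a difference between cohorts. Nothing in the labels says which hearts share a litter. Each p-value sets a group difference against the spread between these hearts within groups, and that spread may hold differences between litters.

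In a healthy heart, which depends on mitochondrial respiration at every beat, worn mitochondria are removed along several routes. PINK1, a kinase that accumulates on depolarised mitochondria, marks their outer membrane with phosphorylated ubiquitin. CLEC16A, an endosomal protein, acts with the ubiquitin ligase Nrdp1 (*Rnf41*) and the deubiquitinase USP8 in control of the late autophagic flux. Receptors in the mitochondrial membranes (BNIP3, NIX, FUNDC1, BCL2L13 and prohibitin 2) bind LC3 directly, and the adaptor p62 (*Sqstm1*) joins ubiquitin-marked cargo to LC3, the lipid-bound protein of the growing autophagosome.

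Libraries held between 5226233 and 11650840 counts. All 6 ventricular cardiomyocyte markers were detected in every library, and their summed level was lowest in WT 2 (17811 CPM, counts scaled by TMM to a common library size) and WT 3 (21504 CPM) against 23724 to 41743 CPM in the other 12 libraries. The summed level of 6 B and plasma cell markers was 177 CPM in WT 2 and at most 19.2 CPM elsewhere. The YG8-800 experiment was described as male, yet 5 of its 8 libraries (WT 1, WT 2, WT 4, YG8-800 1 and YG8-800 3) contained *Xist* RNA and the other 3 contained RNA of Y-linked genes. In the KIKO-700 hearts male 1 stood apart from the other males (chi-square per degree of freedom of 31.0 and 43.0 over genes, against 7.32 between males 2 and 3). Values that moved most when these libraries were left out are given with and without them.

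*Clec16a* (ENSMUSG00000068663) spans chr16:10545339-10744878 on the plus strand of GRCm38 and was read with 8 to 93 counts per library, the fewest of the 9 genes. Its level was 9.82, 6.53, 4.34 and 5.30 CPM in WT hearts 1 to 4. In YG8-800 hearts 1 to 4 it was 2.30, 0.985, 1.91 and 1.96 CPM. All 4 YG8-800 hearts lay below all 4 WT hearts, with group means of 1.79 ± 0.563 CPM (SD, n = 4) and 6.50 ± 2.39 CPM (SD, n = 4). The log2 fold change was −1.81 (standard error, SE, 0.37), which is a description and not a test, because *Clec16a* was chosen by this separation. The nearest libraries on either side of the gap were YG8-800 1, at 23 counts with a 95% Poisson interval of 1.46 to 3.45 CPM, and WT 3, at 20 counts with an interval of 2.65 to 6.70 CPM. These 2 intervals overlapped, and they cover counting error only.

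The bases in front of the *Clec16a* start site are shown because it is the member that separated the groups. The sequence is RefSeq, build GRCm38.p6, plus strand, chr16:10545279-10545338, read 5′ to 3′ and ending at the base before the annotated start.
Clec16a: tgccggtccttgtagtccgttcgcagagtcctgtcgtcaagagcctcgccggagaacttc

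**Figure D1:**
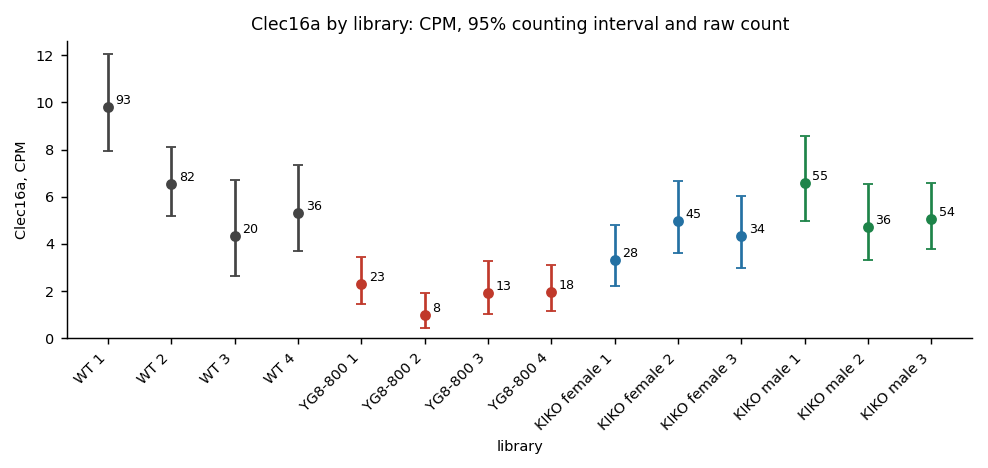
Clec16a in each of the 14 libraries (x axis) in CPM (y axis), with bars for the 95% Poisson interval of the count and the raw count printed beside each point. The 4 YG8-800 hearts sit between 0.985 and 2.30 CPM, below each of the other 10 libraries, the lowest of which is KIKO-700 female 1 at 3.33 CPM.

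Markers of other cells were read beside the *Clec16a* values. The summed level of 4 adipocyte markers was 96.7 CPM in WT 1 and 101 CPM in WT 2, the hearts with the most *Clec16a*, but 1.95 and 27.8 CPM in WT 3 and WT 4 and 6.45 to 14.9 CPM in YG8-800 hearts. With WT 1 and WT 2 left out, the log2 fold change of *Clec16a* was −1.43 (SE 0.45). These are the highest WT values of the gene, so a smaller difference follows from the hearts left out. The part of adipocyte content in the *Clec16a* difference was not tested. The summed level of 5 macrophage markers was 149 to 261 CPM in WT and 100 to 162 CPM in YG8-800 hearts, but within WT it was highest in WT 4 and lowest in WT 2, and its part in the *Clec16a* difference was not tested. With WT 2 and WT 3 left out, of which WT 3 was the lowest WT heart for this gene, the log2 fold change was −2.02 (SE 0.41). Among the 5 hearts with *Xist* RNA alone it was −1.73 (SE 0.48). *Gm15558*, an antisense gene inside *Clec16a*, had no count in any library. In whole tissue, fewer cells of a type and less RNA per cell cannot be told apart.

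In KIKO-700 hearts *Clec16a* was 3.33, 4.99 and 4.32 CPM in females and 6.60, 4.73 and 5.05 CPM in males. Ordered by mean level, the groups ran from WT through KIKO-700 males (5.46 ± 1.00 CPM, SD, n = 3) and KIKO-700 females (4.21 ± 0.831 CPM, SD, n = 3) to YG8-800. The ranges of WT, KIKO-700 male and KIKO-700 female hearts overlapped, and the order of these groups is a description. KIKO-700 females 1 and 3 lay below every WT heart, the lowest of which was at 4.34 CPM. YG8-800 hearts did not overlap with KIKO-700 females, but no test was made across the cohorts.

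Partners of CLEC16A showed no such separation. *Rnf41*, which encodes Nrdp1, was 0.434 to 3.24 CPM in WT and 0.739 to 2.35 CPM in YG8-800 hearts, with a log2 fold change of −0.09 (SE 0.61, edgeR adjusted p = 0.986). *Usp8* was 11.6 to 20.9 CPM in WT and 15.4 to 21.3 CPM in YG8-800 hearts, with a log2 fold change of 0.10 (SE 0.25, edgeR adjusted p = 0.972). *Rnf41* was read with 2 to 33 counts per library in these groups and varied in WT by a coefficient of variation of 84.2%.

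*Pink1* (ENSMUSG00000028756, chr4:138313409-138326307, minus strand) encodes the kinase that starts ubiquitin-dependent mitophagy. It was 211, 215, 140 and 208 CPM in WT hearts 1 to 4 and 157, 209, 155 and 133 CPM in YG8-800 hearts 1 to 4. WT 3 lay among the YG8-800 hearts and YG8-800 2 among the WT hearts, so the groups overlapped. The log2 fold change was −0.21 (SE 0.25), or −0.32 (SE 0.29) with WT 2 and WT 3 left out. For this gene WT 3 was the lowest WT heart, so the larger difference follows from leaving it out.

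Of the membrane receptors, *Phb2* had the largest difference between YG8-800 and WT hearts. It encodes prohibitin 2, an inner membrane scaffold that is exposed as an LC3 receptor when the outer membrane ruptures, and lies at chr6:124712336-124716950 on the plus strand (ENSMUSG00000004264). Its level was 52.4, 41.2, 40.4 and 61.4 CPM in WT hearts 1 to 4 and 81.4, 72.5, 59.1 and 87.5 CPM in YG8-800 hearts 1 to 4. YG8-800 3 lay just under WT 4, and the other YG8-800 hearts lay above every WT heart. The log2 fold change was 0.66 (SE 0.25), and it was 0.44 (SE 0.29) with WT 2 and WT 3 left out. Without WT 4 the groups did not overlap, as for 13.7% of all genes, and it was 0.81 (SE 0.24). For this gene WT 2 and WT 3 were the lowest WT hearts and WT 4 the highest. The direction of both changes thus follows from which hearts were left out.

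*Phb2* shares its start region, head to head, with *Emg1*, which encodes a methyltransferase of the small ribosomal subunit. *Emg1* was 14.3, 12.3, 16.9 and 27.2 CPM in WT hearts 1 to 4 and 30.4, 28.8, 23.7 and 25.8 CPM in YG8-800 hearts 1 to 4. WT 4 was thus the WT heart with the most RNA of both genes, and YG8-800 3 the YG8-800 heart with the least of both. Other hearts did not keep the same order. YG8-800 4 had the most *Phb2* but less *Emg1* than YG8-800 1 and 2. WT 3 had the least *Phb2* but more *Emg1* than WT 1 and WT 2. The log2 fold change of *Emg1* was 0.65 (SE 0.28, edgeR adjusted p = 0.816). In KIKO-700 hearts *Emg1* stayed between 11.0 and 12.5 CPM whereas *Phb2* ranged from 51.6 to 67.9 CPM.

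The stretch shown next lies between the RefSeq start sites of these neighbours (GRCm38.p6, plus strand, chr6:124712179-124712288, 110 bases). It is printed because transcription of both genes begins at its ends, *Emg1* to the left and *Phb2* to the right.
Phb2 and Emg1: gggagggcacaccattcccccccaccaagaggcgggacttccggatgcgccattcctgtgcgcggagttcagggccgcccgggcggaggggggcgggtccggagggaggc

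**Figure D2:**
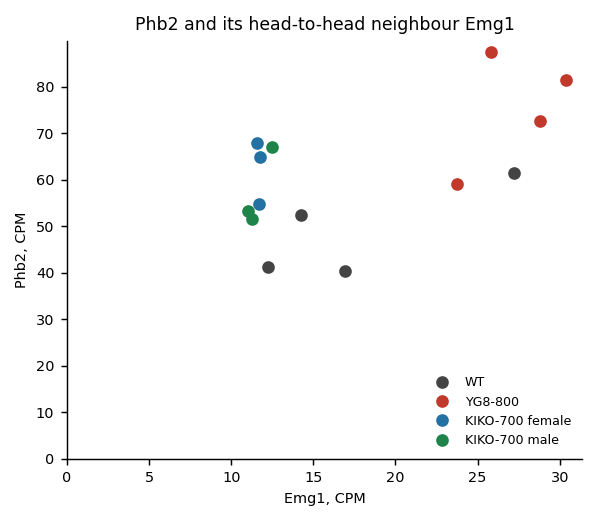
Emg1 (x axis, CPM) against Phb2 (y axis, CPM), 1 point per heart, coloured by group. The YG8-800 hearts and WT 4 lie to the right, above 23 CPM of Emg1, and the 6 KIKO-700 hearts form a column between 11.0 and 12.5 CPM of Emg1.

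*Bnip3* (ENSMUSG00000078566, chr7:138890836-138909519, minus strand) encodes an outer membrane receptor induced by low oxygen. It was 108, 105, 129 and 109 CPM in WT hearts and 113, 111, 93.96 and 93.4 CPM in YG8-800 hearts. WT 3 was the highest of the 8 and YG8-800 3 and 4 the lowest, with a log2 fold change of −0.10 (SE 0.23). *Hif1a*, the oxygen-regulated factor known to drive *Bnip3*, had a log2 fold change of −0.11 (SE 0.25, edgeR adjusted p = 0.961).

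The promoters of 8 of the 9 genes were matched in RefSeq (from 250 bases before to 50 after the start). The core of the hypoxia response element, ACGTG on either strand, was present in *Bnip3* and *Phb2*, 2 of the 8 promoters, and in 19.6% of all 32851 promoters. In *Phb2* it begins 198 bases before the start, beyond the 110 bases shown above, and so lies inside *Emg1*. The E-box CACGTG, which is its own reverse complement and contains that core on both strands, was present in *Bnip3* alone and in 7.15% of all promoters. It begins 108 bases before the *Bnip3* start and is in capitals in the window shown (GRCm38.p6, minus strand, chr7:138909582-138909641), chosen because it is the E-box among these promoters.
Bnip3: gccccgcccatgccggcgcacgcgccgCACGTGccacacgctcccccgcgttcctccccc

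The other receptors overlapped between the groups. *Bnip3l* (ENSMUSG00000022051, chr14:66985239-67008877, minus strand) encodes NIX, the receptor that clears mitochondria from maturing red cells. It was 32.2, 50.1, 25.6 and 39.7 CPM in WT hearts and 40.5, 33.1, 41.0 and 38.3 CPM in YG8-800 hearts. The YG8-800 values fell inside the WT range, and the log2 fold change was 0.08 (SE 0.25). A processed copy on chromosome 12, *Bnip3l-ps*, took 2.04 to 6.61 CPM, and reads of the 2 could be exchanged in counting.

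*Fundc1* (ENSMUSG00000025040, chrX:17556564-17572325, minus strand), an outer membrane receptor of hypoxic mitophagy, was 8.77, 18.5, 15.0 and 13.0 CPM in WT and 14.9, 12.4, 16.1 and 12.3 CPM in YG8-800 hearts. Again the YG8-800 values lay inside the WT range. The log2 fold change was 0.04 (SE 0.28), and it was 0.39 (SE 0.32) with WT 2 and WT 3 left out, the highest WT values of this gene. *Bcl2l13* (ENSMUSG00000009112, chr6:120836212-120892842, plus strand), a Bcl-2 family receptor, was 17.8, 17.9, 11.1 and 10.3 CPM in WT and 17.4, 19.1, 15.0 and 15.6 CPM in YG8-800 hearts. Its WT hearts formed a high pair (WT 1 and WT 2) and a low pair (WT 3 and WT 4), and the log2 fold change of 0.26 (SE 0.26) became 0.64 (SE 0.29) when the high pair was left out, which for this gene removes the highest WT values.

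*Sqstm1* (ENSMUSG00000015837, chr11:50199366-50210827, minus strand) was 127, 184, 122 and 118 CPM in WT hearts and 95.04, 101, 95.4 and 118 CPM in YG8-800 hearts. YG8-800 4 lay just above WT 4, and the other YG8-800 hearts lay below every WT heart (log2 fold change −0.39, SE 0.24). WT 2, the heart with the raised B and plasma cell markers, was the highest. With WT 2 and WT 3 left out the log2 fold change was −0.22 (SE 0.27). A smaller difference follows from leaving out the highest WT value. The part of B and plasma cells in these values was not tested.

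*Map1lc3b* (ENSMUSG00000031812, chr8:121590361-121598760, plus strand) encodes LC3B and was the member with the widest spread within WT (coefficient of variation 53.2%). It was 109, 65.4, 56.2 and 174 CPM in WT hearts 1 to 4 and 137, 90.5, 137 and 166 CPM in YG8-800 hearts 1 to 4. WT 2 and WT 3, the hearts with the lowest ventricular marker sum, were below all YG8-800 hearts and WT 4 was above them all. The log2 fold change of 0.42 (SE 0.35) became −0.065 (SE 0.32) without WT 2 and WT 3 and 0.86 (SE 0.29) without WT 4. For this gene these are the lowest and the highest WT values, so the direction of both changes follows from the hearts left out. The part of ventricular content in these values was not tested. The annotated readthrough gene *Gm20388* spans *Map1lc3b* on the same strand and took 4.32 to 22.0 CPM, and how the counting divided shared reads was not tested.

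**Figure D3:**
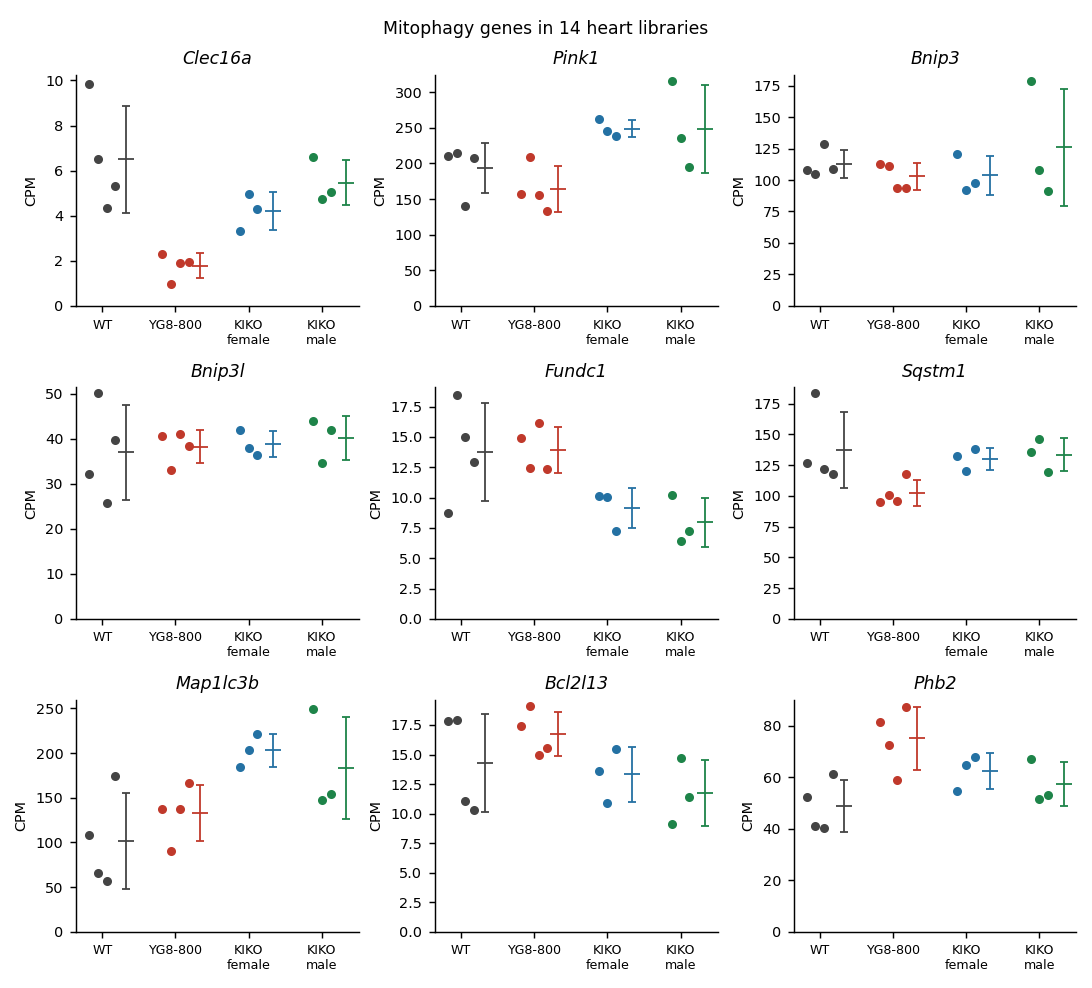
CPM (y axis, from 0) of the 9 mitophagy genes in 4 groups (x axis), 1 point per heart, with the group mean and SD beside the points. Clec16a is the only panel in which the WT and YG8-800 points do not overlap, and KIKO-700 male 1 is the highest point for Pink1, Bnip3 and Map1lc3b.

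Set beside all genes, 1 of the 9 genes had WT and YG8-800 hearts that did not overlap, against 3.88% of the 11875 genes tested, and that gene was the one chosen for it. Without WT 4 the members were 3 (*Clec16a*, *Phb2* and *Sqstm1*), against 13.7% of all genes. The median log2 fold change of the 9 was 0.04, against −0.01 over all genes. No gene of the 11875 passed an adjusted p of 0.05 by edgeR in this comparison. At an unadjusted p under 0.05 there were 718 genes (6.05%), and DESeq2 called 7 at its adjusted p.

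**Figure D4:**
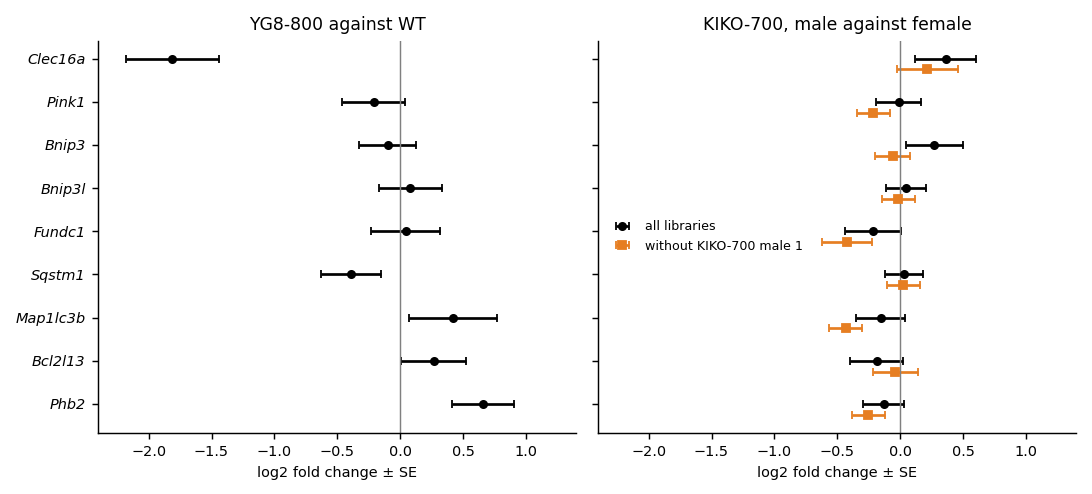
Log2 fold change (x axis) with its SE for the 9 genes (y axis), YG8-800 against WT at the left and KIKO-700 male against female at the right, where squares leave out KIKO-700 male 1. Clec16a at −1.81 stands away from the other genes at the left, which lie between −0.39 and 0.66.

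*Clec16a* was not picked on the difference between KIKO-700 males and females, and the 9 genes were tested there, with earlier results of these data known. With all 6 libraries none of the 9 genes passed edgeR's quasi-likelihood test (adjusted p over 11801 genes from 0.822 to 0.994). Of all genes, 8 passed the adjusted threshold and 843 (7.14%) the unadjusted one, and of the 9 genes none passed either. Males and females overlapped for each of the 9 genes, whereas they did not overlap for 12.6% of all genes tested.

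The size of the differences was small beside the spread. *Clec16a* was higher in males by a log2 fold change of 0.36 (SE 0.24, edgeR adjusted p = 0.822) and *Bnip3* by 0.27 (SE 0.22, edgeR adjusted p = 0.870). *Fundc1* had a log2 fold change of −0.22 (SE 0.22, edgeR adjusted p = 0.903), *Bcl2l13* one of −0.19 (SE 0.21, edgeR adjusted p = 0.917) and *Phb2* one of −0.13 (SE 0.16, edgeR adjusted p = 0.927). *Pink1*, *Bnip3l* and *Sqstm1* lay between −0.01 and 0.05.

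KIKO-700 male 1 decided several of these values. *Bnip3* was 179, 108 and 91.3 CPM in males 1 to 3 and 121, 92.4 and 97.6 CPM in females 1 to 3, so that male 1 alone lay above the females. *Pink1* was 315, 235 and 194 CPM in males and 262, 245 and 239 CPM in females. Here male 1 lay above all females and the other 2 males below them all.

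*Map1lc3b* had the same shape. It was 249, 147 and 154 CPM in males 1 to 3 and 184, 204 and 221 CPM in females 1 to 3. Its log2 fold change was −0.16 (SE 0.20, edgeR adjusted p = 0.927) with all hearts and −0.43 (SE 0.13, edgeR adjusted p = 0.0448) without male 1, when males 2 and 3 both lay below the 3 females.

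Without male 1 the count of genes over the whole table went from 8 to 864 at the adjusted threshold, so the *Map1lc3b* value was 1 of many that moved. In that fit *Pink1* had a log2 fold change of −0.21 (SE 0.13, edgeR adjusted p = 0.358), *Fundc1* one of −0.42 (SE 0.20, edgeR adjusted p = 0.217), *Phb2* one of −0.25 (SE 0.13, edgeR adjusted p = 0.272) and *Clec16a* one of 0.21 (SE 0.24, edgeR adjusted p = 0.658). Males and females then did not overlap for 4 of the 9 genes (*Fundc1*, *Map1lc3b*, *Phb2* and *Pink1*), against 38.9% of all genes.

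For the remaining 3 genes the sexes overlapped, also without male 1. *Sqstm1* was 132, 121 and 138 CPM in females and 135, 146 and 119 CPM in males. *Bnip3l* was 41.9, 38.0 and 36.3 CPM in females and 43.9, 34.7 and 41.9 CPM in males. *Bcl2l13* was 13.6, 10.9 and 15.5 CPM in females and 9.13, 14.7 and 11.4 CPM in males.

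The KIKO-700 sexes also differed in tissue markers. The 4 adipocyte markers summed to 27.3 to 38.5 CPM in females and 7.35 to 11.6 CPM in males, with no overlap. The 4 T cell markers, which were very low, summed to 1.91 to 2.33 CPM in females and 1.05 to 1.56 CPM in males. The sums of the other marker lists overlapped. The part of these differences in the values of the 9 genes was not tested. The ventricular marker sum was 34412 to 37377 CPM in females and 31278 to 41743 CPM in males, with male 1 the highest.

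A wider list of 76 further genes of mitophagy and autophagy, sorted into 8 roles, was read in the same fits. In all, 74 were tested in each comparison and *Nipsnap1* and *Calcoco2*, a mitochondrial "eat me" protein and an autophagy adaptor, were too low. Between YG8-800 and WT hearts 2 of the 74 (2.70%, against 6.05% of all genes) had an unadjusted p under 0.05, 1 in each direction, and none passed the adjusted one. *Atg4a*, a protease that primes LC3-like proteins, had a log2 fold change of 0.73 (SE 0.33, edgeR adjusted p = 0.816). *Foxo3*, a transcription factor of autophagy genes, had one of −0.59 (SE 0.26, edgeR adjusted p = 0.814). The median over the 74 was −0.04.

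A log2 fold change above 0 was found for 35 of the 74 genes, against 5873 of the 11875 genes tested. By role, and with no test, these were 12 of 17 genes of the PINK1 and ubiquitin arm, 11 of 27 of autophagosome formation, 2 of 10 of fusion and lysosome, 3 of 6 transcription factors, 3 of 5 cargo adaptors, 2 of 4 of the LC3 and GABARAP family, 1 of 3 receptors and 1 of the 2 partners of CLEC16A. WT and YG8-800 hearts did not overlap for 2 of the 74 genes (2.70%, against 3.88% of all genes). These were the mitofusins *Mfn1* and *Mfn2*, which fuse outer membranes. *Mfn1* was 82.0 to 112 CPM in WT and 56.0 to 80.9 CPM in YG8-800 hearts (log2 fold change −0.39, SE 0.23, edgeR adjusted p = 0.846). *Mfn2* was 99.5 to 140 CPM in WT and 84.4 to 96.9 CPM in YG8-800 hearts (log2 fold change −0.28, SE 0.22, edgeR adjusted p = 0.885).

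Between KIKO-700 males and females 3 of the 74 genes (4.05%, against 7.14% of all genes) had an unadjusted p under 0.05, and none passed the adjusted one. *Mfn1* was 71.6 to 80.9 CPM in females and 90.5 to 114 CPM in males, with a log2 fold change of 0.44 (SE 0.15, edgeR adjusted p = 0.590). *Gabarapl2*, of the LC3 and GABARAP family, had one of 0.37 (SE 0.17, edgeR adjusted p = 0.688). *Wdr45*, a phosphoinositide-binding protein of the early autophagosome, had one of −0.47 (SE 0.21, edgeR adjusted p = 0.683). Without male 1 there were 13 of 74, in a fit in which 21.3% of all genes passed the unadjusted threshold.

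**Figure D5:**
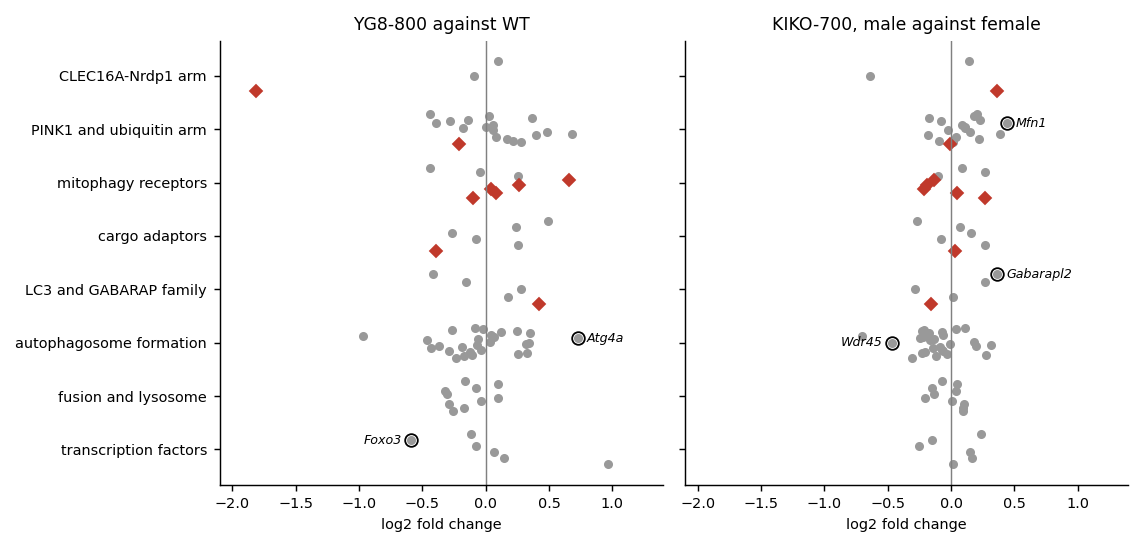
Log2 fold change (x axis) of the 83 tested mitophagy and autophagy genes by role (y axis) in both comparisons, 1 point per gene. Diamonds are the 9 members and rings mark the genes outside them with an unadjusted p under 0.05, of which there are 2 at the left and 3 at the right.

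The genes whose pattern was most like that of *Clec16a* were picked from 11200 genes by the correlation of log2 CPM over the 14 libraries, which share library, depth and group. They were *Dennd4b* (Pearson's r = 0.92), *Tnks2* (0.90) and *Furin* (0.88), and with the group means removed the r was 0.78, 0.76 and 0.60. Being extremes of 11200, these values are a description. *Furin*, a proprotein convertase, was 27.6 to 48.3 CPM in WT, 13.3 to 18.9 CPM in YG8-800 and 33.3 to 56.3 CPM in KIKO-700 hearts. *Dennd4b*, an exchange factor for Rab GTPases, was 7.51 to 15.1 CPM in WT and 3.69 to 6.60 CPM in YG8-800 hearts. *Tnks2*, the poly-ADP-ribosyltransferase tankyrase, was 27.1 to 36.8 CPM in WT and 14.9 to 25.9 CPM in YG8-800 hearts. For all 3 the YG8-800 hearts lay below all WT hearts, while 3.88% of all 11875 genes tested had no overlap in either direction. The 3 were picked over these same hearts for their likeness to *Clec16a*, so their separation is no separate result.

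The lowest correlations with *Clec16a* were those of *Zfp932* (−0.88), *Gm10108* (−0.88) and *Ndufv2* (−0.86). *Ndufv2*, a subunit of the NADH-binding arm of complex I, was 237 to 434 CPM in WT, 390 to 673 CPM in YG8-800 and 260 to 355 CPM in KIKO-700 hearts. WT 4 was inside the YG8-800 range, so these groups overlapped. *Pink1* was most like *Cpsf1* (0.92), *Ggcx* (0.91) and *Stat5b* (0.91). *Bnip3* was most like *Ppp1cc* (0.78), *Csnk2b* (0.77) and *Mical2* (0.76), and each of these 3 genes was highest in KIKO-700 male 1, as *Bnip3* was.

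Small RNA genes lie over members on the same strand, *Mir7019* and *Gm27646* over *Pink1* and *Gm23547* over *Phb2*, and their counts were not examined. Beside these and *Gm20388*, which reached 22.0 CPM over *Map1lc3b*, the genes annotated over the members were as follows. The antisense genes over *Bnip3* (*Gm45507*) and *Phb2* (*Gm15884*) had no count in any library. *Gm18258*, a pseudogene inside *Bnip3*, reached 0.111 CPM, *Bid* (against *Bcl2l13*) 1.35 CPM, *Mrnip* (against *Sqstm1*) 2.94 CPM and *Zcchc14* (against *Map1lc3b*) 6.61 CPM, each on the opposite strand. *Mgat4b*, which lies head to head with *Sqstm1*, was 19.6 to 22.8 CPM in WT and 10.8 to 23.6 CPM in YG8-800 hearts. Its log2 fold change was −0.18 (SE 0.27, edgeR adjusted p = 0.94).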

How the data were processed

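QuantSeq 3′ libraries of 14 mouse hearts were analysed. The authors deposited raw counts per Ensembl gene as whole numbers, not normalized. For alignment and counting, tools listed in the submitters' processing notes are STAR (2.5.0a) and HTSeq (0.6.1) with genome GRCm38.p6, while the study's methods name Rsubread with stranded featureCounts. These were not reconciled. Symbols came from GENCODE M21 (GRCm38), positions too, promoters from RefSeq (GRCm38.p6).

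Low genes were removed by filterByExpr and TMM factors applied before robust quasi-likelihood fits in edgeR 4.0.16 (R 4.3.3), once for WT and YG8-800 and once for KIKO-700 males and females, with Benjamini-Hochberg adjustment over all genes tested. CPM used TMM factors over 14 libraries. limma 3.58.1 (voom) and DESeq2 1.42.0 were alternatives. Scripts were tested on simulated data. Depth was 5226233 to 11650840 counts, and counting intervals cover counting error only.

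The members, gene lists and tests were chosen with earlier results of these data known. Named genes are the 9 members, overlapping and head-to-head genes, wider-list genes at an unadjusted p under 0.05 (up to 4 per role), and the genes most or least correlated with *Clec16a* (3 each) or most with *Pink1* and *Bnip3* (3 each). *Mfn2*, *Rnf41*, *Usp8* and *Hif1a* were named after values were seen. The gene targeted in these lines is not reported here. Replicate numbers did not pair the samples.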

Additional observations from a re-analysis of the deposited data

Results flagged for a closer look

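In 18 groups of 4 (9 genes in WT and in YG8-800 hearts), 3 values lay apart from the rest of their group by Dixon's criterion at the 95% level, which chance alone passes in about 1 group of 20. *Pink1* was 140.4 CPM in WT 3, the lowest of its group. *Bnip3* was 128.7 CPM in WT 3, the highest of its group. *Sqstm1* was 183.6 CPM in WT 2, the highest of its group.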

How the results depend on the processing

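The log2 fold change of *Clec16a* between YG8-800 and WT hearts stayed between −2.11 and −1.43 in 21 settings, and could not be fitted where 10 counts were required in every library. *Pink1*, *Bnip3*, *Sqstm1*, *Bcl2l13* and *Phb2* kept their sign in all 22 settings, and *Bnip3l*, *Fundc1* and *Map1lc3b* in 19, 17 and 21. Genes at an adjusted p under 0.05 in this comparison numbered 0, and 107 with no filter on low counts (24532 genes tested) or 7 with DESeq2. Leaving out 1 heart gave 0 to 146, with 146 without WT 4. The 2 genes of the wider list became 1 with upper-quartile factors, no filter, DESeq2, a replicate block, the abundant genes left out, an *Xist* covariate or WT 1 and WT 2 left out together (chosen after seeing the data, as was leaving out WT 2 and WT 3), 0 among *Xist*-bearing hearts, and 0 to 6 with 1 heart left out (6 without WT 4). Between KIKO-700 sexes the 8 genes became 105 with no filter, 2 with 10 counts in every library and 18 with DESeq2, and 4 to 864 with 1 heart left out (864 without male 1). The 3 genes of the wider list became 1 with library size alone, no filter, DESeq2 or the replicate block, and 0 to 13 with 1 heart left out (13 without male 1). *Pink1* changed sign to 0.000200 with RLE factors, 0.00265 with library size alone, 0.00466 with no filter and 0.000169 with DESeq2. With 1 heart left out its log2 fold change ran from −0.21 to 0.14, that of *Sqstm1* from −0.031 to 0.10, that of *Bnip3l* from −0.014 to 0.15 and that of *Bnip3* from −0.061 to 0.46. The cause of these changes was not tested. Same-numbered hearts did not deviate together (r from −0.23 to 0.25 for YG8-800 and WT and from −0.19 to −0.04 for KIKO-700), and a replicate block gave 0 and 6 adjusted genes against 0 and 8. Depth limits *Clec16a* most, at 8 to 93 counts.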
